A study of Mus musculus with 4 samples.

Results

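CD39, CD73 and adenosine handling are represented here by 9 named genes, found by an exact match of their symbols among the 20837 genes of a read count table, and none of them was missing from it. Entpd1, Nt5e, Entpd4 and Entpd4b are nucleotide-splitting enzymes, Adora2a and Adora2b are receptors, and Slc29a1, Ada and Adk take up or clear adenosine. The table holds RNA sequencing of splenic regulatory T (Treg) cells in 4 libraries. The 2 cKO libraries carry the genotype Foxp3YFP-CreKmt2dfl/fl, in which a Cre recombinase under the control of Foxp3 deletes loxP-flanked Kmt2d, a histone methyltransferase gene, in Foxp3-expressing cells. The 2 WT libraries carry Foxp3YFP-CreKmt2d+/+, so that both groups have the Foxp3-driven Cre with its yellow fluorescent protein and differ in the Kmt2d allele. The sources used here do not give age, sex or whether the libraries of a group come from separate mice. A p-value here sets the group difference only against the spread between libraries of a group, and that spread may be technical. The extraction text in the labels is about cultured macrophages of another knockout, unlike the fields for tissue, cell type and genotype, and it is the genotype that set the groups.

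Extracellular ATP is a danger signal, and Treg cells, the Foxp3-positive regulatory subset of CD4 T cells that holds immune responses in check, are known for turning it into adenosine. The ectoenzyme CD39, encoded by Entpd1, trims ATP and ADP to AMP, and CD73, encoded by Nt5e, takes the last phosphate off AMP to give adenosine. Adenosine then acts on receptors of the Adora family, of which the A2a receptor raises cyclic AMP in T cells, or enters the cell through nucleoside transporters, where adenosine kinase (Adk) returns it to AMP and adenosine deaminase (Ada) converts it to inosine.

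Total counts were 28442416 and 34225385 in the cKO libraries and 35560491 and 30737750 in the WT libraries, and 1 read was worth between 0.0288 and 0.0344 CPM (counts per 1000000 reads of the TMM-scaled library). Foxp3 measured 170 and 180 CPM in the cKO libraries, against 278 and 250 CPM in the WT libraries. Kmt2d measured 836 and 793 CPM in the cKO libraries, against 721 and 704 CPM in the WT libraries, and was called higher in cKO (log2 fold change 0.19, SE 0.05, edgeR adjusted p = 0.0375). Exons that the Cre leaves in place still add reads to a gene-level count, so this value is no check of the deletion. Of 8 Treg markers 4 fell and 1 rose (summed level 2389 and 2971 CPM in cKO, 3514 and 2715 CPM in WT), and of 12 pan T cell markers 8 fell and 0 rose, with a median log2 fold change of -0.32. The pan T cell sum was 4700 and 5104 CPM in cKO and 5940 and 5682 CPM in WT. Markers of other cells were also present and differed between the groups. All 9 neutrophil markers rose, with a summed level of 467 and 981 CPM in cKO and 47.3 and 143 CPM in WT, and all 6 basophil and mast cell markers rose (19.4 and 33.9 CPM in cKO, 1.56 and 3.61 CPM in WT). Of 8 markers of CD8 T and NK cells 7 rose (sums of 220 and 232 CPM in cKO, 134 and 161 CPM in WT), as did 3 of 6 plasmacytoid dendritic cell markers (120 and 127 CPM in cKO, 100.1 and 98.1 CPM in WT). One of 8 B cell markers rose (186 and 294 CPM in cKO, 149 and 180 CPM in WT), and 1 of 8 macrophage markers (937 and 773 CPM in cKO, 536 and 736 CPM in WT). The median log2 fold change was 0.7 over the B cell markers but -0.28 over the macrophage markers, opposite to the direction of their sum. Of 8 erythroid and platelet markers 6 were tested and 0 called by edgeR (sums of 157 and 445 CPM in cKO, 570 and 209 CPM in WT). No marker of these lists was at 0 in a library except the erythroid Klf1 and the platelet Pf4. Their part in the results below was not tested.

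Start regions of Entpd1 and Adk are shown first, as 2 of the genes that fell and that each have more than 1 annotated start. Of the 9 genes, 7 matched the RefSeq promoter table of build GRCm38.p6, with 16 start sites among them, 8 of which belong to Slc29a1. The windows printed are the 250 bases before both annotated starts of Entpd1 and of Adk, all on the plus strand. Capitals mark the CCAAT box (CCAAT or ATTGG) and the short form of the cyclic AMP response element (TGACG or CGTCA).
Entpd1, first start, chr19:40612116-40612365: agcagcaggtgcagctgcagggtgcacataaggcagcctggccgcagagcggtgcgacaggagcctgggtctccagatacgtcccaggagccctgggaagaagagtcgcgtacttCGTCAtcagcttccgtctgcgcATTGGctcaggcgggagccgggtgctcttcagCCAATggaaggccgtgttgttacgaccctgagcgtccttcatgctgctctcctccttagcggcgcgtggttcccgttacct
Entpd1, second start, chr19:40659520-40659769: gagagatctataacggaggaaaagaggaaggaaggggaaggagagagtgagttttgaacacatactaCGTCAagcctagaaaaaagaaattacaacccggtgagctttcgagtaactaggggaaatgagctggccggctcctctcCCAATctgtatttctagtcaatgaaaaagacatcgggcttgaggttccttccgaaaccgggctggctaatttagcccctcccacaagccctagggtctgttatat
Adk, first start, chr14:21052324-21052573: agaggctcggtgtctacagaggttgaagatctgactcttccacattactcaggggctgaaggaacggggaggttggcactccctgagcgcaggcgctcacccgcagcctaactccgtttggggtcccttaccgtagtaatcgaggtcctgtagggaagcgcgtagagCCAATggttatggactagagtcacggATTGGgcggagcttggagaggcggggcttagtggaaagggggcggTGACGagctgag
Adk, second start, chr14:21075902-21076151: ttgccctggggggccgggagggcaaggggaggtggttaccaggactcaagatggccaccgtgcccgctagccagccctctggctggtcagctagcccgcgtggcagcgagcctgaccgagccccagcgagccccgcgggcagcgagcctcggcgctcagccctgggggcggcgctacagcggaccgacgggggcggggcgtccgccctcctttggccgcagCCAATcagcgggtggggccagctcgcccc

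Each of these 4 windows holds at least 1 CCAAT box, with 2 in the first windows of Entpd1 and Adk, and 33.8% of all 32851 windows of this length hold one. The short form of the cyclic AMP response element stands once in both Entpd1 windows and in the first Adk window, and 17.8% of all windows hold it. The window of Nt5e, which also fell, holds 0 CCAAT boxes and 0 short forms. Those of Entpd4b, which fell, and of Ada and Adora2b, which were not called, hold 1 CCAAT box each and 0 short forms. Slc29a1, also not called, has a window with 1 CCAAT box and another with 1 short form. Whether a motif goes with a fall was not tested. The GC box (GGGCGG or CCGCCC, in 32.7% of all windows) occurs 2 and 3 times in the Adk windows and in neither Entpd1 window. None of the 4 windows holds the full response element TGACGTCA (1.55% of all windows), the AP-1 motif TGANTCA (6.75%), the forkhead motif TGTTTAC (3.17%) or the RUNX motif TGTGGT (14%). These motifs were searched on both strands and chosen after the expression values were known, and the short form lies inside the full element. The GC content was 62.4% and 47.2% in the Entpd1 windows and 58.8% and 75.2% in the Adk windows, beside a median of 52.4% over all windows. A match is a string of letters and not a bound site.

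Among the ectoenzymes, the gene of CD39 fell in the cKO libraries and that of CD73 fell less. Entpd1 (gene number 12495, chromosome 19, 40612366 to 40741602 in mm10, plus strand, 17 merged exons) had 24.3 and 24.4 CPM in the cKO libraries, against 39.5 and 43.1 CPM in the WT libraries. The cKO values are almost equal and lie below both WT values, with no overlap. Entpd1 fell by 0.76 on the log2 scale (SE 0.07, edgeR quasi-likelihood adjusted p = 0.00363), which leaves 0.590 of the WT level. Over all genes, 15.1% of the 13861 tested were called lower in cKO by this test, and 31.6% were called in either direction. In bulk RNA a smaller share of cells of a type and less RNA per cell cannot be told apart, and this holds for each value given here. Counts were also scaled to the summed Treg markers in place of TMM, a setting added after the data were seen. The Entpd1 difference was then -0.56 on the log2 scale and not called (SE 0.32, edgeR adjusted p = 0.421). The median over all genes was 0.21 under that scaling, and the Entpd1 SE was larger than the 0.07 with TMM.

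Nt5e (gene number 23959, chromosome 9, 88327197 to 88372092, plus strand) was the most abundant of the 9 genes in CPM, above 92.3% of tested genes. It had 161 and 181 CPM in the cKO libraries, against 217 and 223 CPM in the WT libraries. The groups do not overlap, but the cKO libraries differ from each other by more than the WT libraries do. Nt5e fell by 0.36 on the log2 scale (SE 0.07, edgeR quasi-likelihood adjusted p = 0.0128), which leaves 0.777 of the WT level. The log2 fold change was -0.29 without cKO 1, -0.45 without cKO 2, -0.38 without WT 1 and -0.34 without WT 2. The call ended in each of these fits but that without cKO 2. Such a fit leaves a group with a single library, and fewer of all genes were called in it too. The call also ended when counts were scaled to the pan T cell transcripts (-0.12, SE 0.08, edgeR adjusted p = 0.249). The same held with scaling to the Treg markers (-0.17, SE 0.30, edgeR adjusted p = 0.861). The median of all genes lay at 0.25 and 0.21 under these scalings.

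The ratio of CD39 to CD73 transcripts within a library does not depend on scaling between libraries. Entpd1 counts per Nt5e count were 0.151 and 0.135 in the cKO libraries, against 0.182 and 0.193 in the WT libraries. Both cKO ratios lie below both WT ratios, with a difference of -0.40 on the log2 scale between the group means (SD 0.12 in cKO and 0.06 in WT, n = 2 each). An exact permutation test of 2 against 2 libraries cannot give a two-sided p under 0.33, so the ratios carry no test.

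**Figure D1:**
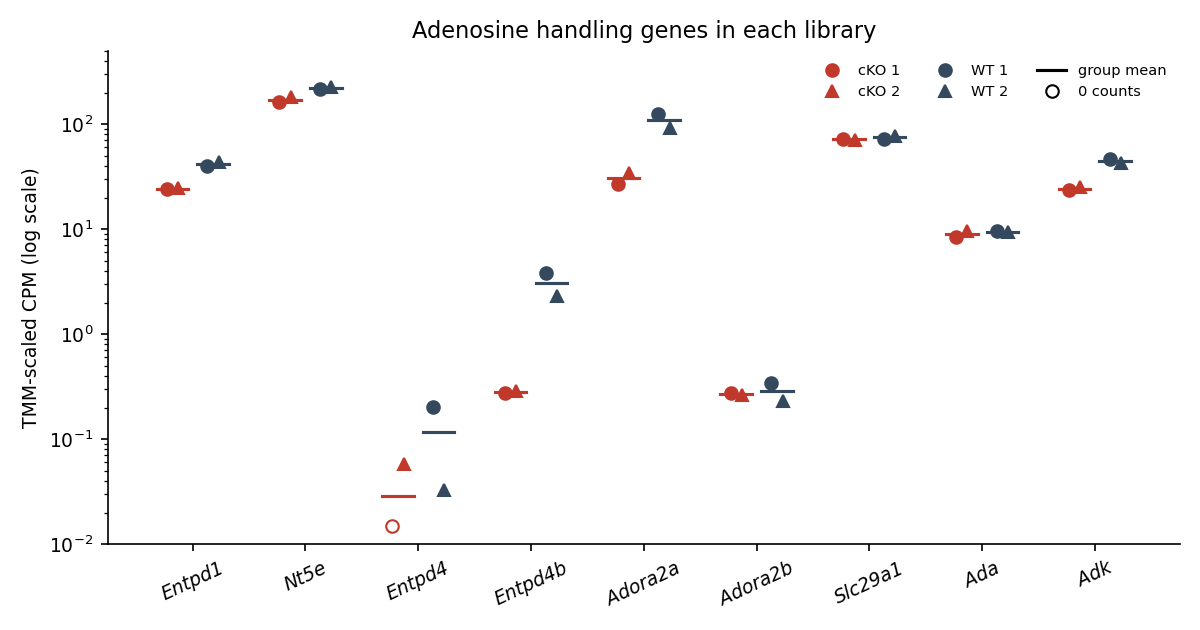
Level of each of the 9 genes in every library, as TMM-scaled CPM on a log axis, with cKO left of WT, circles for library 1, triangles for library 2, lines for group means and an open symbol for 0 counts. Adora2a, Entpd1, Adk, Nt5e and Entpd4b lie lower in both cKO libraries than in both WT libraries, whereas Ada and Adora2b overlap between the groups.

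The receptor genes stood far apart in level, and 1 of them fell. Adora2a, which encodes the A2a receptor (gene number 11540, chromosome 10, 75316877 to 75334784, plus strand), had 26.9 and 34.5 CPM in the cKO libraries, against 126 and 91.4 CPM in the WT libraries. Every cKO library is below every WT library by more than the libraries of either group differ. Adora2a fell by 1.82 on the log2 scale (SE 0.18, edgeR quasi-likelihood adjusted p = 0.00419), which leaves 0.283 of the WT level. Only 1.02% of tested genes had a fold change this low or lower. The call held in all 15 alternative settings run for this gene, with log2 fold changes from -2.04 to -1.57. Among them, summing the Entpd4 copies could hardly alter this gene. The Treg scaling and a block by crossed library numbers were added after the data were seen.

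Adora2b, which encodes the related A2b receptor, known for needing more adenosine (gene number 11541, chromosome 11, 62248984 to 62266453, plus strand), was close to the limit of detection. It had 8 and 9 counts in the cKO libraries and 12 and 7 counts in the WT libraries. The groups overlap, and the gene did not pass the filter on low counts, so it has no test there. The sums of 17 counts over the cKO libraries and 19 over the WT libraries, with exact 95% Poisson intervals of 9.90 to 27.2 and 11.4 to 29.7, gave a ratio of 0.917 after scaling, with an exact 95% interval of 0.448 to 1.86 that covers counting error only. The Adora2a ratio of 0.283 lies outside this interval, and a difference within it was not detectable at this depth. Adora2a counts per Adora2b count were 97.9 and 132 in the cKO libraries, against 364 and 398 in the WT libraries. The 2 other receptor genes of the family, Adora1 and Adora3, had at most 3 counts in any library.

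Of the genes that take up and clear adenosine, the kinase fell while the transporter and the deaminase did not pass the test. Adk (gene number 11534, chromosome 14, 21052574 to 21448569, plus strand) had 23.4 and 25.0 CPM in the cKO libraries, against 46.3 and 42.6 CPM in the WT libraries. The groups are far apart compared with the spread within each. Adk fell by 0.87 on the log2 scale (SE 0.07, edgeR quasi-likelihood adjusted p = 0.00326), which leaves 0.545 of the WT level. Scaled to the Treg markers the difference was -0.66 and not called (SE 0.32, edgeR adjusted p = 0.264), with a median of 0.21 over all genes. Scaled to pan T cell transcripts Adk stayed called (-0.63, SE 0.09, edgeR adjusted p = 0.00201), with that median at 0.25.

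Ada (gene number 11486, chromosome 2, 163726584 to 163750239, minus strand) had 8.46 and 9.67 CPM in the cKO libraries, against 9.59 and 9.32 CPM in the WT libraries. These values overlap, and the log2 fold change was -0.06 (SE 0.11, edgeR quasi-likelihood adjusted p = 0.767). Slc29a1, the equilibrative transporter that lets adenosine cross the membrane down its gradient (gene number 63959, chromosome 17, 45585200 to 45599606, minus strand), had 71.8 and 71.2 CPM in the cKO libraries, against 72.0 and 77.5 CPM in the WT libraries. Its cKO values lie just under both WT values, as they do for 30.9% of all tested genes, and the log2 fold change was -0.07 (SE 0.06, edgeR adjusted p = 0.459). The sign of these differences is not fixed: scaled to pan T cell transcripts it was 0.18 for both genes, and without cKO 1 it was 0.03 for Ada, none of them called.

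Kinase and deaminase therefore stood in a different proportion in each group. Adk counts per Ada count were 2.77 and 2.59 in the cKO libraries, against 4.82 and 4.57 in the WT libraries. Both cKO ratios are below both WT ratios, by 0.81 on the log2 scale between the group means (SD 0.07 in cKO and 0.05 in WT, n = 2 each). Adk counts per Slc29a1 count were 0.327 and 0.352 in the cKO libraries, against 0.642 and 0.550 in the WT libraries, and again did not overlap. These log2 differences stayed between -0.86 and -0.76 for Adk over Ada and between -0.92 and -0.70 for Adk over Slc29a1 when any 1 library was left out.

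**Figure D2:**
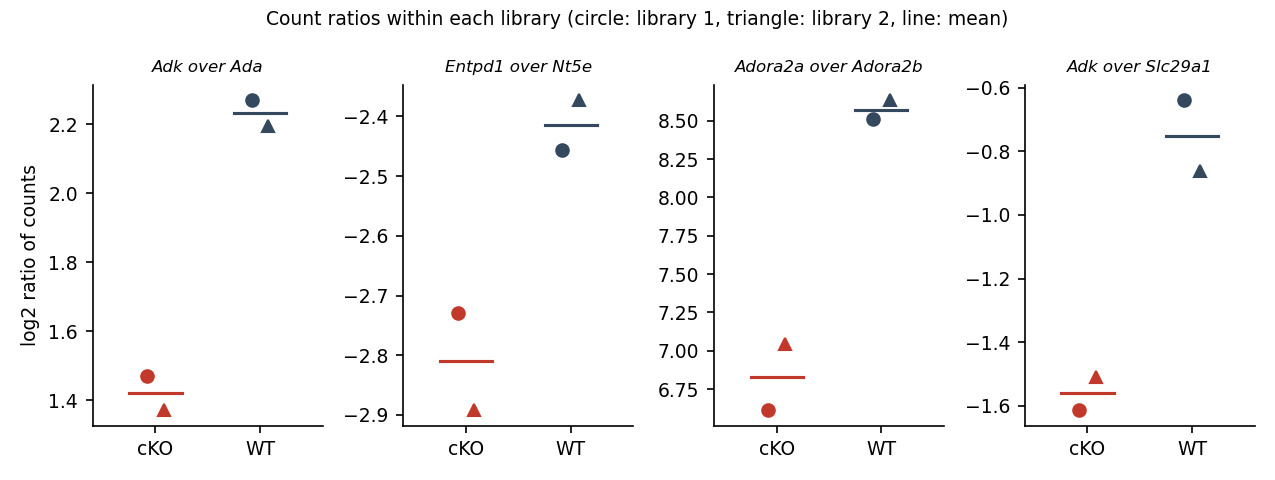
Log2 ratio of the raw counts of 4 gene pairs within each library, with cKO left of WT, circles for library 1, triangles for library 2 and lines for group means, each panel on its own axis that does not start at 0. In each pair shown both cKO libraries lie below both WT libraries, by 0.40 on the log2 scale for Entpd1 over Nt5e and by 1.74 for Adora2a over Adora2b. The first gene of each pair shown was called lower, so these differences follow from the fold changes of the single genes and are no separate result. Adora2b had 8 and 9 counts in cKO and 12 and 7 in WT. Entpd1 over Entpd4 and Entpd4 over Entpd4b were also set as pairs but are not drawn, since Entpd4 had 0 counts in cKO 1. Entpd4 over Entpd4b was 0 and 0.2 in cKO, against 0.0522 and 0.0141 in WT.

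Entpd4 encodes a nucleotide-splitting enzyme of the Golgi and lysosomes, and Entpd4b is a mouse copy of it on the same chromosome. Entpd4 (gene number 67464, chromosome 14, 69337174 to 69367270) and Entpd4b (gene number 100862375, chromosome 14, 69555424 to 69585520) both lie on the plus strand. Their longest annotated coding transcripts have 3589 bases each in GENCODE M21 and differ at 0 of them. Over all annotated transcripts of either gene, 0 of 8304 distinct windows of 100 bases in one are absent from the other. The first 90 coding bases are shown because they are the same letters in both genes.
Entpd4 and Entpd4b: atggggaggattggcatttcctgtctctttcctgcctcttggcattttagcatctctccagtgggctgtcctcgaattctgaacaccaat

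A read within these exons fits both genes equally, and how the authors' counting treated such reads is not given in the sources used here. Entpd4 had 0 and 2 counts in the cKO libraries and 7 and 1 counts in the WT libraries, too few to pass the filter. Its cKO level over its WT level came to 0.256 (exact 95% interval from counting alone 0.0265 to 1.28). Entpd4b had 8 and 10 counts in the cKO libraries, against 134 and 71 counts in the WT libraries. It passed the filter through the WT libraries alone, where it is high, and it fell by 3.44 on the log2 scale (SE 0.37, edgeR quasi-likelihood adjusted p = 0.00456). A gene at its cKO level in all libraries would not have been tested. The sum of both copies fell by 3.35 (SE 0.39, edgeR adjusted p = 0.00497). Most of its counts are those of Entpd4b and it too is high in the WT libraries, so it is no separate result. Neither copy's value can be taken as the level of its own transcripts. On the opposite strand Entpd4 overlaps Gm16867 and Entpd4b overlaps Gm27177, whose reads could be counted with theirs if strand was not used.

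Levels of different genes can be set side by side only per length, here as CPM per kilobase of merged GENCODE M21 exons, which may not be the exons the authors counted. In the WT libraries the order was Adora2a (41.1 and 29.8 CPM per kilobase), Nt5e (25.2 and 26.0), Slc29a1 (18 and 19.3), Entpd1 (7.08 and 7.73), Adk (5.43 and 5) and Ada (4.79 and 4.65), and no neighbours in this order overlapped. In the cKO libraries Nt5e came first (18.7 and 21.1 CPM per kilobase), then Slc29a1 (17.9 and 17.8), Adora2a (8.79 and 11.3), Ada (4.22 and 4.83), Entpd1 (4.36 and 4.38) and Adk (2.75 and 2.93). Ada and Entpd1 overlapped in cKO, so their order there does not stand out from the spread. Adora2a thus held the third level per length in the cKO libraries and the first in the WT libraries. Adora2b, Entpd4b and Entpd4 stayed under 0.5 CPM per kilobase in all libraries.

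Of the 9 genes, 5 fell, 0 rose, 2 did not pass and 2 were not tested. Over all genes tested, 15.1% were called lower, 16.5% higher and 31.6% in either direction. Entpd4b is set aside here because it was tested through its WT level alone, and among the 6 genes that passed the filter in both groups 4 fell and 2 did not pass. The median log2 fold change of these 6 was -0.56, beside 0.0003 over all genes tested. In 5 of these 6 genes each cKO library was below each WT library, and in 0 above. Over all tested genes the groups did not overlap in 66%, with cKO below in 30.9% and above in 35.1%. The genes were chosen with earlier results of these data known, so these counts are a description. They also come from the transcripts alone, and neither enzyme activity nor adenosine was measured.

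Calls among other genes of nucleotide and adenosine turnover were about as common as among all genes. Of 52 such genes in a fixed list, 50 had counts to analyse and 37 were tested. Of these 9 rose, 2 fell and 26 did not pass, so that 29.7% were called, beside 31.6% of all genes, of which 16.5% were called higher and 15.1% lower. The classes below hold few genes each, and their counts are given as a description against these shares. Their median log2 fold change was 0.03. Scaled to pan T cell transcripts, 17 rose and 0 fell, and the median of all genes lay at 0.25.

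Among the other ectoenzymes, 1 of 8 tested rose and 2 fell, near the 16.5% and 15.1% of all genes. Alpl, the alkaline phosphatase that can also take AMP to adenosine and is known as well from neutrophils, had 8.08 and 8.28 CPM in the cKO libraries, against 3.49 and 2.89 CPM in the WT libraries. It rose by 1.36 in log2 units (SE 0.15, edgeR quasi-likelihood adjusted p = 0.00452), beside the neutrophil markers given above, and their part in it was not tested. Enpp1, a pyrophosphatase that splits ATP to AMP, fell by 0.32 (22.8 and 24.0 CPM in cKO, 30.2 and 28.1 CPM in WT, edgeR adjusted p = 0.0231). Entpd5, a nucleotidase of the endoplasmic reticulum, fell by 0.28 (62.4 and 62.9 CPM in cKO, 76.3 and 75.4 CPM in WT, edgeR adjusted p = 0.0101). Entpd6, Entpd7, Enpp2, Enpp4 and Acpp did not pass, with log2 fold changes between -0.29 for Acpp and 0.0008 for Entpd6. Entpd2, Entpd3, Entpd8 and Enpp3, relatives of CD39 and of Enpp1, had at most 3 counts in any library.

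None of the 5 intracellular nucleotidases tested was called by edgeR, and 1 of them, Nt5c3b, had an unadjusted p under 0.05 (log2 fold change 0.15, edgeR adjusted p = 0.0677). Of 4 other nucleoside transporters 2 rose, beside 16.5% of all genes. Slc29a4, a relative of Slc29a1 that also carries monoamines, had 2.61 and 2.61 CPM in the cKO libraries, against 0.547 and 0.788 CPM in the WT libraries, and rose by 1.97 in log2 units (SE 0.25, edgeR adjusted p = 0.00543). Slc29a3, a transporter of intracellular membranes, rose by 0.21 (edgeR adjusted p = 0.0257). The concentrative transporter gene Slc28a2, at 154 and 153 CPM in cKO and 158 and 143 CPM in WT, was the highest of these in CPM and did not pass (log2 fold change 0.03, SE 0.06).

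Of 9 genes of deamination, salvage and adenosine deaminase binding, 1 rose, near the 16.5% of all genes. This was the purine salvage gene Hprt (log2 fold change 0.20, edgeR adjusted p = 0.0316). Pnp, which splits inosine after deamination, had a log2 fold change of 0.14 (edgeR adjusted p = 0.0793). Dpp4, whose product CD26 anchors adenosine deaminase on human T cells, had 0.18 (edgeR adjusted p = 0.173). The uncalled genes of this class ranged from -0.42 for Pnp2 to 0.18 for Dpp4. Ahcy, which releases adenosine from S-adenosylhomocysteine, rose by 0.30 (SE 0.05, edgeR adjusted p = 0.0119), and its relatives Ahcyl1 and Ahcyl2 did not pass.

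Of 6 adenylate kinases tested, which pass phosphates between adenine nucleotides, 3 rose, beside 16.5% of all genes. Ak3 of the mitochondrial matrix had 65.7 and 62.7 CPM in the cKO libraries, against 45.1 and 48.4 CPM in the WT libraries, and rose by 0.46 in log2 units (SE 0.06, edgeR adjusted p = 0.00553). Ak4 rose by 1.53 from few counts (32 and 36 in cKO, 11 and 13 in WT, edgeR adjusted p = 0.0154) and Ak6, which in humans shares exons with TAF9 so that reads may be split between them, by 0.49 (edgeR adjusted p = 0.0351). Vdac1, a channel of the outer mitochondrial membrane, rose by 0.27 (edgeR adjusted p = 0.0158), while the ATP release channel gene Panx1 did not pass (log2 fold change -0.02, SE 0.05).

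Of the 11 called genes of this list, Alpl and Slc29a4 stayed called under every alternative run on them, and Ak3 lost it only with scaling to the Treg markers (edgeR adjusted p = 0.235). Ak4, Ak6, Hprt and Slc29a3 lost it whichever of the 4 libraries was left out (edgeR adjusted p between 0.0515 and 0.187). Enpp1, Entpd5 and Vdac1 lost it without cKO 1, cKO 2 or WT 1 (adjusted p between 0.0537 and 0.118), and Ahcy without cKO 1 (0.0743) or WT 1 (0.0681).

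**Figure D3:**
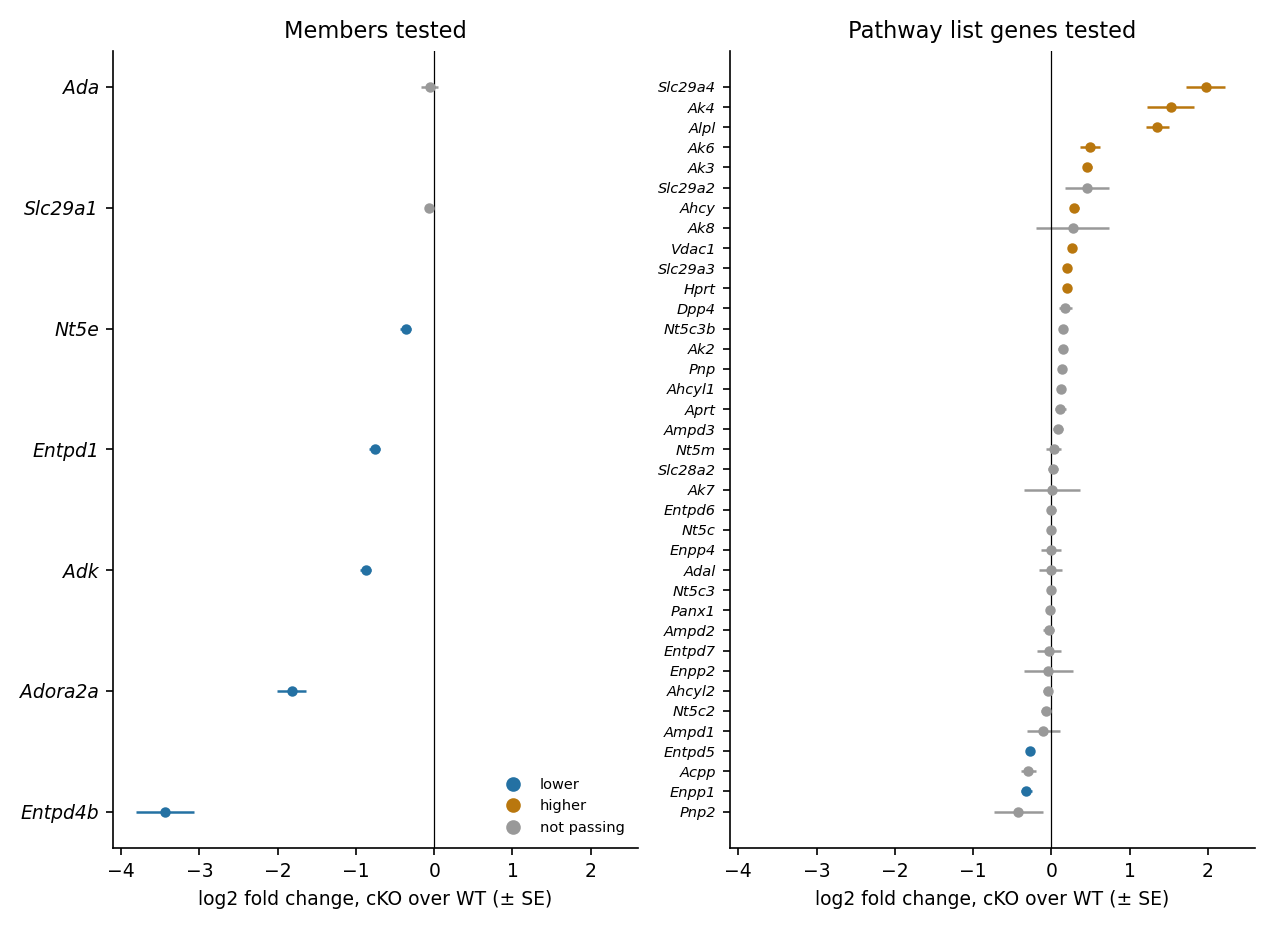
Log2 fold change of cKO over WT with its SE for the 7 adenosine handling genes tested (left) and the 37 genes of the pathway list tested (right), in blue where lower, in orange where higher and in grey where the edgeR adjusted p did not pass 0.05. The left panel runs from -3.44 for Entpd4b to -0.06 for Ada, while most genes of the right panel lie near 0.

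Genes whose levels followed those of the members most closely over the 4 libraries were sought among 8603 candidates. The candidates had a mean level of at least 10 CPM and a symbol not of a predicted gene, clone or pseudogene. The genes named lay at the smallest distance between log2 CPM values centred on each gene's own mean. For Adora2a these were Sorcs2, Dlg4 and Nr4a3, with distances of 0.204, 0.206 and 0.243 log2 units. Nr4a3, an orphan nuclear receptor gene, had 75.5 and 104 CPM in the cKO libraries, against 304 and 230 CPM in the WT libraries. For Entpd1 they were Rarg, Acot7 and Cd81, with distances of 0.0466, 0.0657 and 0.0756, and for Nt5e they were Gt(ROSA)26Sor, Kif13b and Nsun4, with distances of 0.00595, 0.0334 and 0.0336. With 2 libraries a group such closeness reflects the difference between the groups and the difference within each, and it is given as a description.

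**Figure D4:**
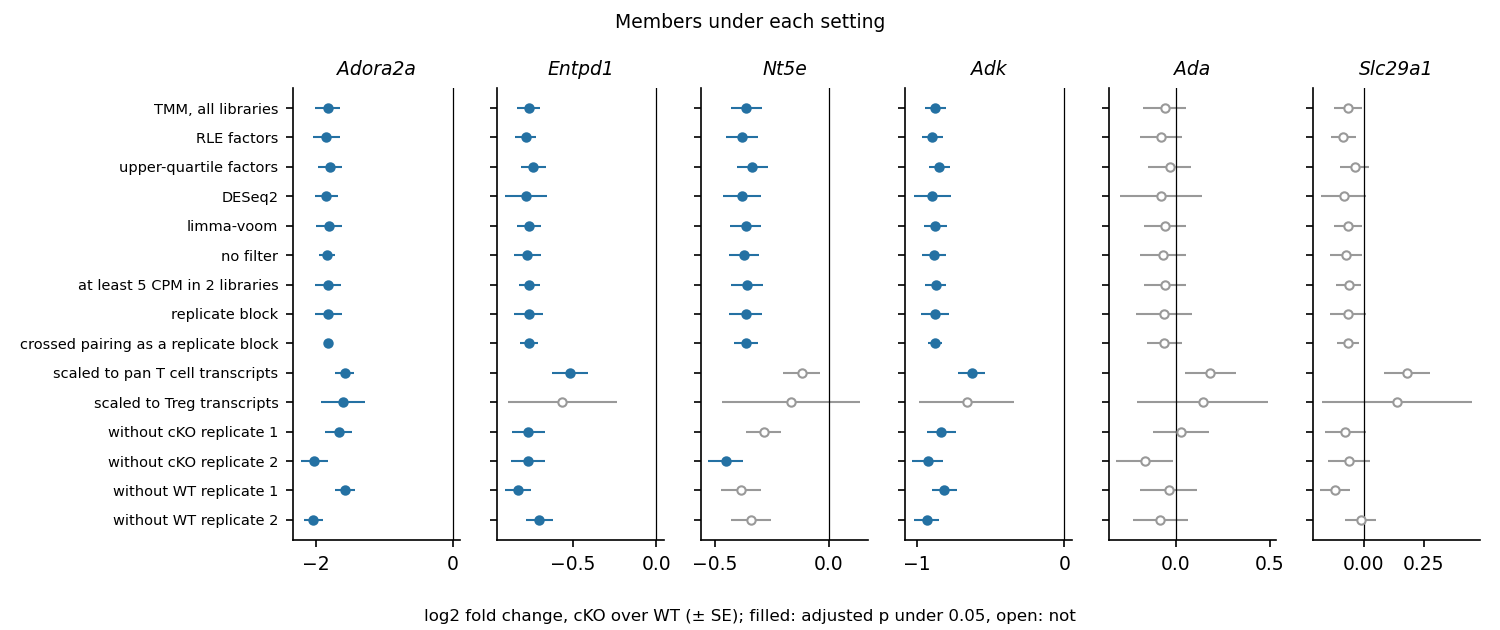
Log2 fold change of cKO over WT with its SE for 6 of the genes under each setting, filled where the adjusted p was under 0.05 and open where it was not, each panel on its own axis. Adora2a is filled in every row, Entpd1 and Adk in all but the scaling to Treg transcripts, and Nt5e is open in 5 rows.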

How the data were processed

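The authors deposited 1 table of raw read counts per gene, a whole number for each of the 4 libraries. Per the submitters' processing notes, the genome build was mm10. No source used here names the aligner, counter, annotation release, read length or strand setting. The groups follow the titles and genotype fields of the labels. The genes and lists were chosen with earlier results of these data known.

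Low genes were removed by filterByExpr, keeping 13861 of 20837, and counts were scaled by TMM factors to CPM. The filter asked for a level worth 10 reads in the median library (0.308 CPM) in at least 2 libraries, and 15 reads in total. The groups were compared with edgeR 4.0.16 in R 4.3.3 (glmQLFit, glmQLFTest, group alone, two-sided, Benjamini-Hochberg over all genes tested, threshold 0.05). Each SE was derived from the log2 fold change and its F statistic. The test was checked on simulated data. Alternatives were RLE and upper-quartile factors, DESeq2 1.42.0, limma-voom 3.58.1, other filters and thresholds, the replicate number as a block, scaling to pan T cell or Treg transcripts, summed Entpd4 copies and leaving out each library. All 9 genes are named, pathway genes that passed the test, and the 3 genes nearest to Entpd1, Nt5e and Adora2a. Other pathway genes are named as examples, chosen after their values were seen, and not every uncalled gene of a class is named. Coordinates and exon lengths came from GENCODE M21 (mm10), and start windows from RefSeq (GRCm38.p6).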

Additional observations from a re-analysis of the deposited data

How the results depend on the processing

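The count of 5 lower genes among the 9 stayed between 4 and 5 when any 1 library was left out and fell to 2 with scaling to Treg markers, where Adora2a was called besides Entpd4b, whose call is no sign of stability since it passed the filter through WT alone. Over all genes, 4380 were called, against 2876 with DESeq2, 1193 with Treg scaling, 2087 at 1.5-fold or more and 1869 to 2747 without 1 library. Scaling to pan T cell transcripts gave 4889 higher and 858 lower, against 2292 and 2088 with TMM. Of the pathway list, 11 were called, against 6 with DESeq2, 17 with pan T cell scaling, 3 with Treg scaling, 3 at 1.5-fold or more and 3 to 7 without 1 library. Ada and Slc29a1 changed sign, uncalled, with pan T cell scaling (0.18 for each) and Treg scaling (0.14 for each), and Ada without cKO 1 (0.0277, the range over left-out libraries being -0.16 to 0.0277). The causes were not tested. Libraries with the same number deviated in opposite directions from their group means (r = -0.41 over 13861 genes). With 2 libraries a group this cannot tell whether the numbers pair them. With the replicate number as a block 2292 genes and 3 of the pathway list were called. The crossed pairing as a block, added after the data were seen, gave 6713 and 17. It takes up the deviation just described, so its higher counts are no support. Entpd1, Nt5e, Adora2a and Adk stayed called with either block. With 2 libraries a group and under 20 counts over a group, Adora2b and Entpd4 are limited by depth.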
